A study of Mus musculus with 15 samples.

Results

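The genes described here are 42 genes of the autophagy machinery and of mTOR signalling, taken from a fixed list of symbols, and all 42 were found among the 43629 genes listed in the deposited counts. They were grouped by role into the ULK1 initiation complex (5 genes), the class III phosphatidylinositol 3-kinase complexes and their activator Ambra1 (6 genes), the ATG2, ATG9 and WIPI group (6 genes), the ATG12 and ATG8 conjugation enzymes (9 genes), the ATG8 family itself (5 genes), cargo receptors together with Pink1 (8 genes), and Mtor, Rptor and Tfeb (3 genes). RNA of whole brain was sequenced from 15 wildtype male C57BL/6J mice, one library per mouse. Diet was either unrestricted (AL, ad libitum) or every-other-day feeding (EOD, food given on alternate days), which the labels abbreviate as IF. The groups were 4 young AL and 3 young EOD mice aged 3 months, and 4 old AL and 4 old EOD mice whose labels give 24 months. The design asks whether these transcripts differ with age, with diet, or with age differently under each diet. Per the paper, EOD was short-term in the young mice and almost lifelong in the old mice. Age comparisons that include EOD mice, diet averages over ages and the interaction therefore combine age with time on EOD. By default the paper's tests began on mornings that followed a feeding day, and no day is named for taking the brains.

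Autophagy encloses cytoplasm, protein aggregates or organelles in a newly formed membrane and delivers them to lysosomes for breakdown. Fasting lowers the activity of the mTOR kinase complex, which then no longer holds back the ULK1 kinase, and ULK1 together with the class III phosphatidylinositol 3-kinase starts the membrane, onto which ATG8 proteins are attached and to which cargo receptors bind. Neurons depend on the pathway because they do not divide, and much of its control acts on the proteins and not on their transcripts.

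Promoter sequences are shown for Pink1, the member called with age, for Gabarap and Ulk2, the members next to it by p-value in the average age comparison, and for Atg3, in which a motif searched for occurred more than once. Each is the 250 bases before the RefSeq transcript start on GRCm38.p6, written 5′ to 3′ along the gene in lower case, and capitals mark motif matches.
Pink1 (chr4:138326297-138326546, minus strand): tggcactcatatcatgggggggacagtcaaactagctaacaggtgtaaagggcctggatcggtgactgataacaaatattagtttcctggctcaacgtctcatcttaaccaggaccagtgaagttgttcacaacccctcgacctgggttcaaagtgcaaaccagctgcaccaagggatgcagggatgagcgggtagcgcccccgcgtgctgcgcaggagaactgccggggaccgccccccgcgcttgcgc
Gabarap (chr11:69991120-69991369, plus strand): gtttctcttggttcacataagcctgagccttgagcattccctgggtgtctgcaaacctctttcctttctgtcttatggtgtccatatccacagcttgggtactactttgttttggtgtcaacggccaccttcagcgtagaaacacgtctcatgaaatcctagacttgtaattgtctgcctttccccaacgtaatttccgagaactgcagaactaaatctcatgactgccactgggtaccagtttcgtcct
Ulk2 (chr11:61855093-61855342, minus strand): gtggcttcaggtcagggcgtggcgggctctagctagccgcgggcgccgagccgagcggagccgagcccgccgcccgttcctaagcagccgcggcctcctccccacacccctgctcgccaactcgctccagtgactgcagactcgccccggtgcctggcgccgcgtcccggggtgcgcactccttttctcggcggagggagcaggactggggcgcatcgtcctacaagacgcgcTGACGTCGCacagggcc
Atg3 (chr16:45158579-45158828, plus strand): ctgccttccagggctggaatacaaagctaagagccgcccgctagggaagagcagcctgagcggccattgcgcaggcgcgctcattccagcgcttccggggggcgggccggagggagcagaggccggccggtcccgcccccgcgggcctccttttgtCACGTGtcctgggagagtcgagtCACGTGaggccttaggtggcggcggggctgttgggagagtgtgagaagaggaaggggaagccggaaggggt

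Motifs were searched on both strands. They were CACGTG, the E-box core within the element that TFEB binds (a palindrome, so that 1 match covers both strands), GTAAACA, a forkhead motif, and TGACNNNGC, the antioxidant response element core. Promoters were matched by symbol for 35 of the 42 members, with 40 promoters in all, and those of Atg16l1, Rb1cc1, Pik3c3, Atg12, Map1lc3a, Bnip3l and Becn1 were not used here. CACGTG occurred in 4 of the 40 member promoters (10%), those of Atg3, Atg5, Atg7 and Bnip3, and in 6.02% of 32851 promoters of the same length. In Atg3 its first bases lay 94 and 71 bases before the start. TGACNNNGC occurred in the promoters of Atg13, Tax1bp1 and Ulk2, 7.5% of the member promoters against 10.2% of all, and in Ulk2 it began 17 bases before the start. GTAAACA occurred in 0 member promoters and in 3.17% of all. No matches overlapped in the sequences shown, and the Pink1 and Gabarap stretches held none.

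Total counts on genes ranged from 5198748 to 13610729 per mouse, and 15864 genes passed the filter on low counts, all 42 members among them. The third young AL mouse stood apart. It had the largest total, the fewest genes with a count (17280 against 19054 to 20880) and a median correlation with the other mice of 0.9898 on a log2 scale, against 0.9949 to 0.9967. Among the members it had the highest CPM (counts scaled to a common library size) of all mice for 9 and the lowest for 6. The fourth old AL mouse had a summed CPM of 1039 for 5 pituitary hormone markers, against at most 18.2 in the other mice. Brain cell markers were detected in all mice. The 7 microglial markers summed to 321 to 362 CPM in young and 400.2 to 475 CPM in old mice. With age averaged over diets, 4 of the 7 were increased and 0 decreased (edgeR, false discovery rate under 0.1), against 1.62% of all genes increased. Of 7 astrocyte and 7 oligodendrocyte markers, 1 each was increased. Choroid plexus markers summed to 328 to 953 CPM in young and 595 to 1224 CPM in old mice, lowest in the third young AL mouse. That mouse also had the lowest oligodendrocyte sum, 5905 CPM. Neuron markers summed to 9031 to 10819 CPM in young and 8512 to 9864 CPM in old mice, with the highest sum in the third young AL mouse.

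Levels of different members were compared per length, as CPM per kilobase of exon. Gabarapl1, an ATG8 family member, had the highest mean over the 15 mice, 394 CPM per kilobase (range 358 to 447). It was followed by Pink1, a kinase that marks damaged mitochondria, at 145 (range 122 to 173), and by Sqstm1, the p62 cargo receptor, at 124 (range 97.4 to 133). The ranges of Pink1 and Sqstm1 overlapped, and that of Gabarapl1 lay clear of both. Map1lc3a (81.3 CPM per kilobase) and Gabarap (66.8) completed the upper end. At the lower end were Pik3r4 (4.64), Atg2a (3.77) and Tfeb (0.803 CPM per kilobase, from 17 to 77 counts per mouse), so that Tfeb is measured with the least depth. Among the role groups, the 5 ATG8 genes spanned 17.6 to 394 CPM per kilobase, the 9 conjugation enzymes 5.76 to 32.8, the 5 initiation genes 10.6 to 26.4 and the 6 class III kinase genes 4.64 to 16.7.

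**Figure D1:**
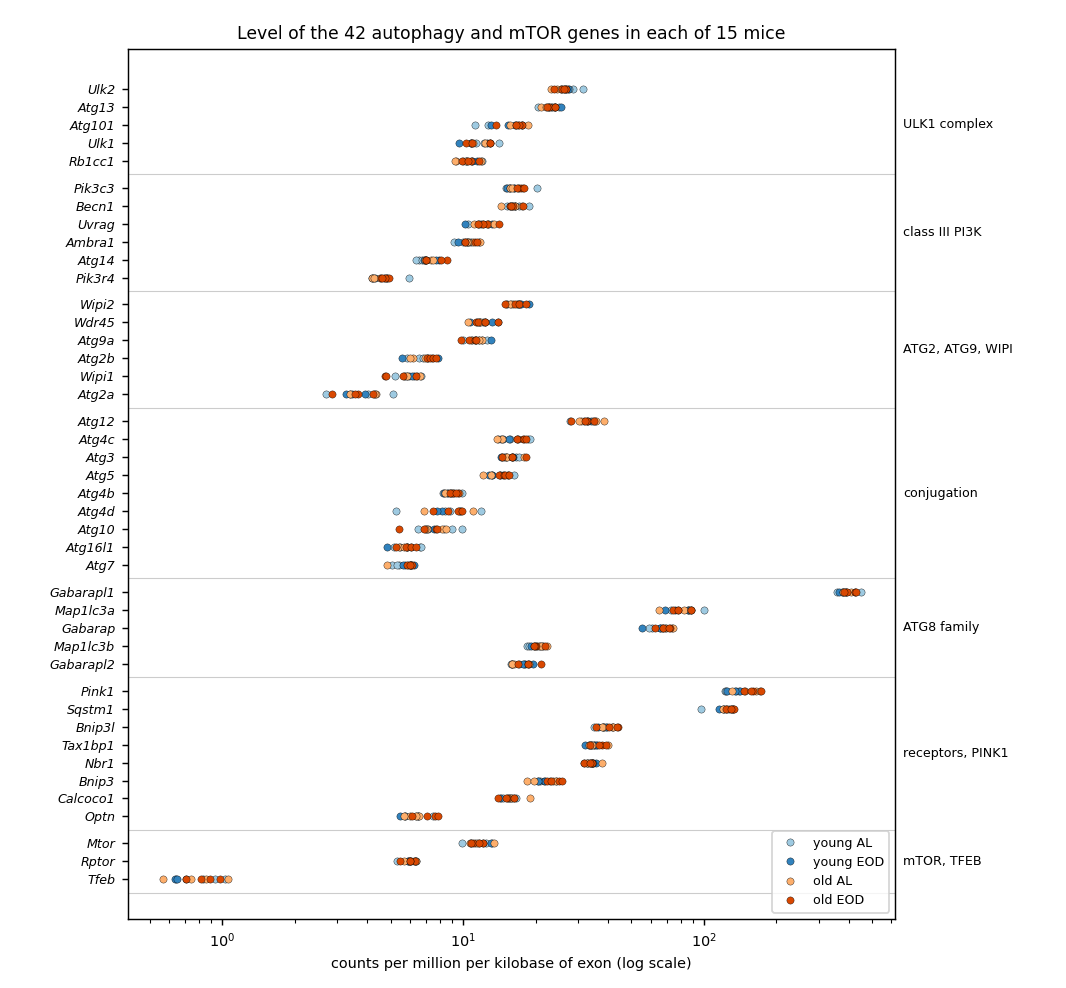
Level of each of the 42 members in each mouse, as CPM per kilobase of exon on a log axis, with members grouped by role and one point per mouse coloured by group. Points of all 4 groups lie on top of each other for most genes, Gabarapl1 is highest at 394 on average and Tfeb lowest at 0.803.

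A small set of sequence and annotation limits touches these levels. Some 50-base windows of the members' transcripts also occurred in a gene elsewhere. Their share was 46.3% for Bnip3, 24.4% for Bnip3l, 17% for Gabarapl2, 8.2% for Rb1cc1 and 6.41% for Map1lc3b. Counts of these genes are uncertain where reads fit both places. The paper reports unique counts, so such reads may have been left out and these levels may be too low. For Atg9a, 31.8% of the exon bases overlap another gene on the same strand, and for Pink1 6.7%. Overlap on the opposite strand, which strand-specific counting separates, was largest for Becn1 (43.9% of exon bases), Atg4d (31.2%) and Sqstm1 (17.3%).

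Of the 42 members, Pink1 alone passed FDR 0.1 (edgeR quasi-likelihood F test, Benjamini-Hochberg over the genes tested). It did so when old mice were compared with young mice as an average over both diets. Among all 15864 genes, 2.3% passed in that comparison and 1.62% were higher in old mice, so that 1 of 42 is near the background. The other 41 members did not pass in any of the 7 comparisons. In old against young AL mice 0 members passed and 1.09% of all genes did (0.946% higher in old mice). In old against young EOD mice 0 members passed and 0.29% of all genes did (0.258% higher in old mice). DESeq2 likewise called 1 member in the average age comparison and 0 in each of the others. At an unadjusted p under 0.05, edgeR gave 3 members in the average age comparison (Pink1, Gabarap and Ulk2; 11.7% of all genes), 2 in AL mice (Pink1 and Ulk2; 9.52%) and 2 in EOD mice (Pink1 and Atg4c; 5.74%). These lists changed without the third young AL mouse, also for EOD mice, where it enters the shared fit but not the values compared. The average comparison then gave 5 members (Pink1, Gabarap, Gabarapl1, Pik3c3 and Sqstm1; 11.9% of all genes), AL mice 2 (Pink1 and Gabarap; 7.25%) and EOD mice 4 (Pink1, Atg4c, Pik3c3 and Optn; 7.94%), of which Pink1 alone passed FDR 0.1, in the average comparison.

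The differences with age were small and measured closely. The members' log2 differences averaged over diets ran from -0.12 to 0.24 with a median of 0.0465, and 30 of the 42 lay above 0, against a median of -0.00491 and 48.5% above 0 over all genes tested. In AL mice alone the members' median was 0.012 and in EOD mice 0.0556; the all-gene medians were -0.00957 and -0.000358. Without the third young AL mouse the members' medians were 0.0514 in AL mice (26 of 42 above 0) and 0.0604 in EOD mice, so that most of the gap between the diets was lost with that mouse. The 95% interval of the average age difference lay within a 1.5-fold change in either direction for all 42 members and within a 25% increase or the matching fold decrease for 38 of them. Of all 15864 genes, 12123 had an interval of the average difference within 1.5-fold. Within each diet fewer members had an interval within 25%, 32 in AL mice and 28 in EOD mice. The members' biological coefficient of variation between mice of a group, as edgeR estimates it, had a median of 0.0844 (0.0635 to 0.171), against 0.123 over all genes. In RNA of whole brain, fewer cells of a type and less RNA per cell cannot be told apart.

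**Figure D2:**
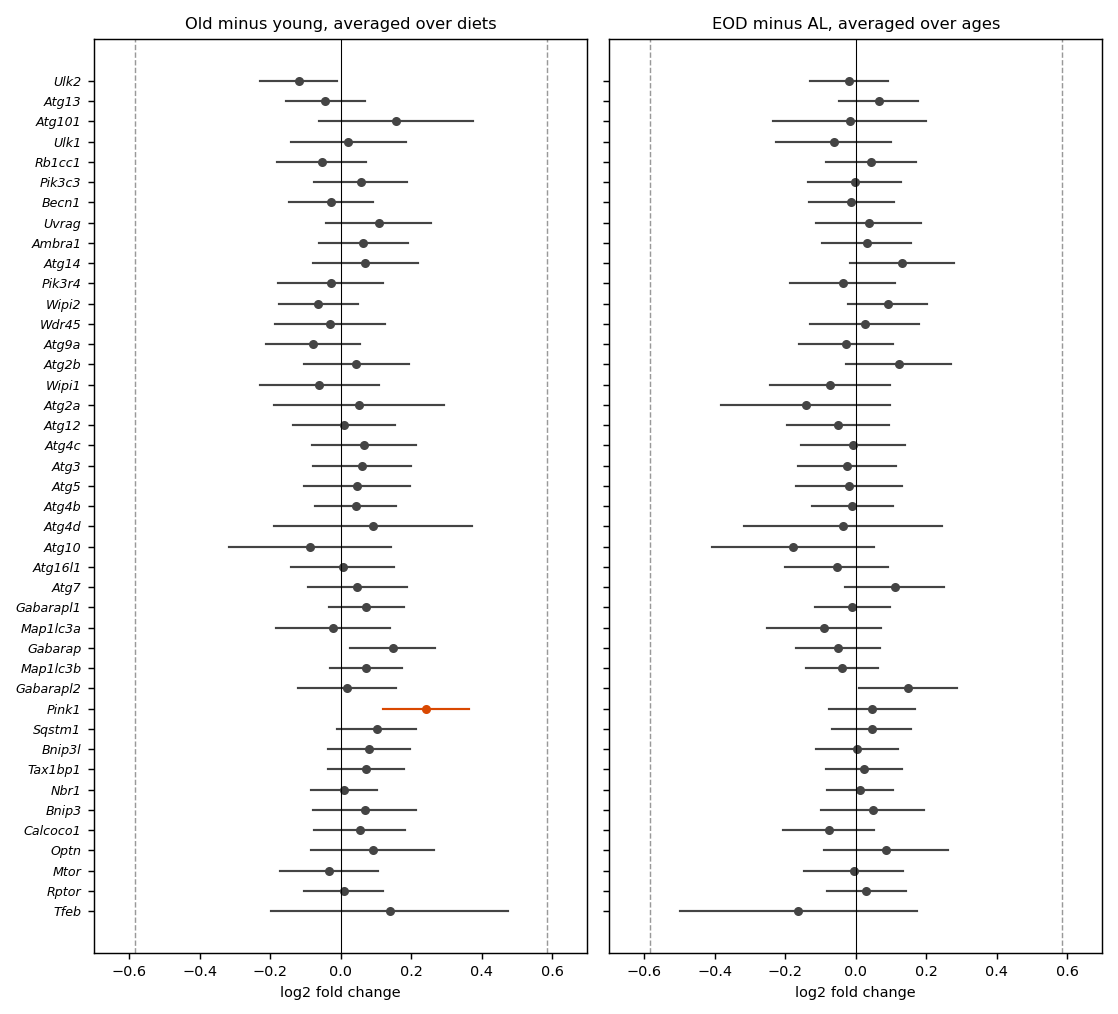
Log2 fold change of each member with its 95% interval, for old minus young mice averaged over diets on the left and EOD minus AL mice averaged over ages on the right. Dashed lines mark a 1.5-fold change, all intervals lie between them, and Pink1, in orange on the left, is the gene past FDR 0.1.

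Pink1 (ENSMUSG00000028756, chr4:138313409-138326307, minus strand, GRCm38), whose kinase accumulates on damaged mitochondria and recruits the ubiquitin ligase parkin for mitophagy, was measured at 327, 362, 329.7 and 373 CPM in the young AL mice and 378, 335 and 361 CPM in the young EOD mice. Pink1 was at 351, 396, 438 and 457 CPM in the old AL mice and 426, 463, 391 and 419 CPM in the old EOD mice. Each old mouse except the first old AL mouse lay above the highest young mouse, and the 3 young EOD mice lay among or just above the young AL mice. Group means were 348 ± 23.1 CPM (SD, n = 4) in young AL, 358 ± 22.1 CPM (SD, n = 3) in young EOD, and, in the old mice, 410.3 ± 47 CPM (SD, n = 4) under AL and 425 ± 29.7 CPM (SD, n = 4) under EOD. Averaged over diets Pink1 rose with age by a log2 fold change of 0.24 (SE 0.0589, 95% interval 0.12 to 0.36, unadjusted p = 0.000517, edgeR FDR 0.0406), an increase of between 8.6% and 28.7%. The log2 difference was 0.24 in AL mice (unadjusted p = 0.00705, edgeR FDR 0.267) and 0.24 in EOD mice (unadjusted p = 0.0102, edgeR FDR 0.656), and neither passed alone. The interaction, the diet difference in old mice minus that in young mice, was 0.01 (95% interval -0.24 to 0.25, edgeR FDR 1.0). The average diet difference of Pink1 was 0.05 (95% interval -0.08 to 0.17, edgeR FDR 0.983).

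Of the 15 fits that each left out 1 mouse, 1 lost the Pink1 call, and some other settings lost it too. Without the third young AL mouse the log2 fold change was 0.23 (edgeR FDR 0.0503), and without the fourth old AL mouse, which carried the pituitary markers and had the highest old AL value, it was 0.22 (edgeR FDR 0.0745). It was called in 19 of 22 alternatives and lost in 3, among them the fit without the second young EOD mouse (0.22, edgeR FDR 0.15) and that with sequencing lane as a covariate (0.23, edgeR FDR 0.129). Over the 22 the FDR ran from 0.00245 to 0.15. Lanes 1, 2 and 3 held 5, 6 and 4 mice. Within them the old mice exceeded the young mice by 0.123, 0.336 and 0.175 on the log2 scale. The lane 3 value rests on 1 young mouse, fed AL, against 1 old AL and 2 old EOD mice. The summed microglial markers moved with age as well, and their part in the Pink1 result was not tested.

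**Figure D3:**
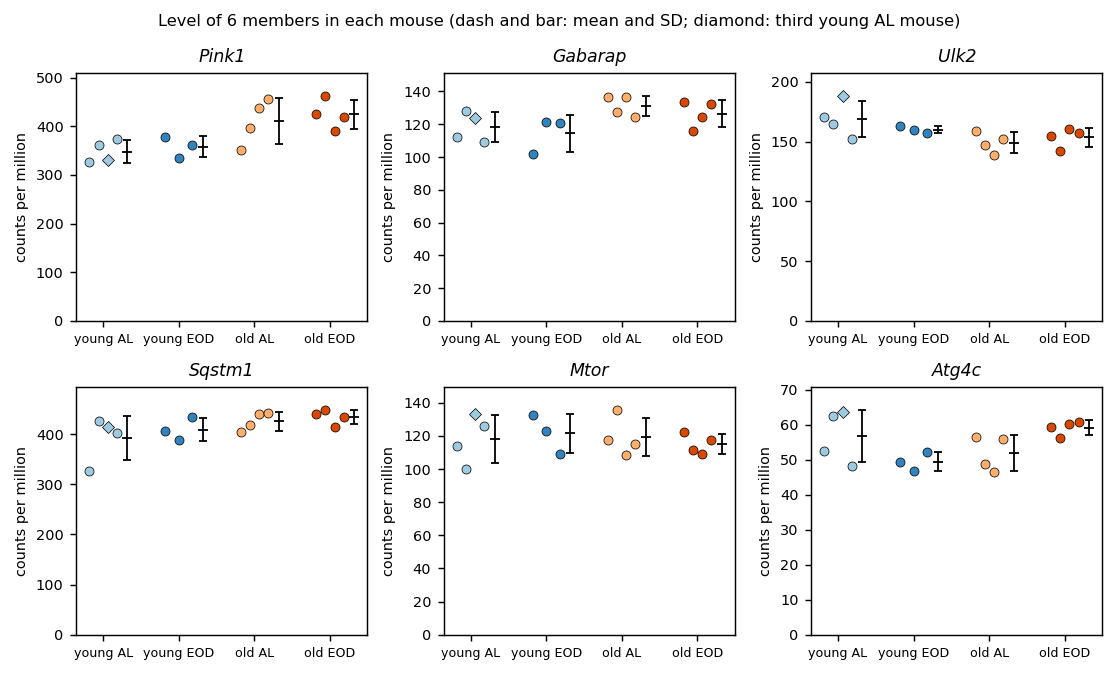
CPM of Pink1, Gabarap, Ulk2, Sqstm1, Mtor and Atg4c in each mouse, one point per mouse, with the mean and SD of each group beside the points and the third young AL mouse as a diamond. Pink1 means rise from 348 and 358 CPM in the young groups to 410.3 and 425 CPM in the old groups. The first old AL mouse lies within the young range of Pink1, and all groups overlap for Mtor.

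The ULK1 complex, which receives the signal from mTOR and AMPK, had 0 of 5 members past FDR 0.1 with age, with 2 of the 5 above 0 in the average age comparison (median log2 difference -0.0431). Ulk2, a kinase closely related to Ulk1, was measured at 171, 165, 188 and 152 CPM in the young AL mice and 163, 160.1 and 157 CPM in the young EOD mice. Ulk2 was at 159, 147, 138 and 152 CPM in the old AL mice and 154, 142, 160.5 and 157 CPM in the old EOD mice. The third young AL mouse was the highest of all mice, the third old AL mouse was the lowest, and the groups overlapped. Its average log2 difference with age was -0.12 (SE 0.0527, 95% interval -0.23 to -0.01, unadjusted p = 0.0344, edgeR FDR 0.374), and in AL mice it was -0.18 (95% interval -0.33 to -0.03, edgeR FDR 0.395). Without the third young AL mouse the difference in AL mice was -0.12 (unadjusted p = 0.11, edgeR quasi-likelihood test).

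Ulk1, the kinase that starts the process, was measured at 58.9, 56.3, 63.8 and 73.2 CPM in the young AL mice and 65.6, 50.4 and 56.5 CPM in the young EOD mice. Ulk1 was at 57.3, 56.4, 67.3 and 64 CPM in the old AL mice and 53.7, 67.7, 57 and 67.4 CPM in the old EOD mice. The fourth young AL mouse was highest, the second young EOD mouse was lowest, and all groups overlapped. Its log2 difference with age was 0.02 (95% interval -0.14 to 0.18, edgeR FDR 0.949) and with diet -0.06 (95% interval -0.23 to 0.10, edgeR FDR 0.983). The other subunits were Atg13 and Atg101, the adaptor pair of the complex, and Rb1cc1, its scaffold, with average age differences of -0.04, 0.16 and -0.05 on the log2 scale. Atg101 was the most variable of them, from 13.7 CPM in the third young AL mouse to 22.8 CPM in the second old AL mouse.

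Of the 6 class III kinase genes, which make the lipid signal of the new membrane, 0 passed with age or diet, and their average age differences ran from -0.03 to 0.11 on the log2 scale. Pik3c3, the catalytic subunit, was measured at 69.3, 72.6, 90.9 and 67.4 CPM in the young AL mice and 67.9, 70.2 and 72.7 CPM in the young EOD mice. Pik3c3 was at 75.6, 70.1, 76 and 71.3 CPM in the old AL mice and 78.1, 79.4, 74.8 and 80 CPM in the old EOD mice. Its highest value was in the third young AL mouse, and the 4 old EOD mice all lay above the 3 young EOD mice. The age difference was 0.15 (95% interval -0.04 to 0.35, edgeR FDR 0.972) on the log2 scale in EOD mice and 0.06 (95% interval -0.07 to 0.19, edgeR FDR 0.786) on average. Without the third young AL mouse the average Pik3c3 difference was 0.12 (95% interval 0.01 to 0.22, edgeR FDR 0.356). Becn1, the Beclin 1 subunit shared by the complexes, was measured at 113, 133, 121 and 108 CPM in the young AL mice and 110.5, 117 and 116 CPM in the young EOD mice. Becn1 was at 101, 116, 124 and 113 CPM in the old AL mice and 114, 110.4, 112 and 125 CPM in the old EOD mice. Its highest value was in the second young AL mouse and its lowest in the first old AL mouse, and all groups overlapped. The Becn1 log2 difference was -0.03 (95% interval -0.15 to 0.09, edgeR FDR 0.906) with age and -0.01 (95% interval -0.13 to 0.11, edgeR FDR 0.996) with diet.

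Atg14, the subunit that directs the kinase to autophagosome formation, was measured at 24, 22.6, 22.1 and 23.3 CPM in the young AL mice and 23.8, 27.5 and 26.5 CPM in the young EOD mice. Atg14 was at 24.1, 23.9, 25.3 and 25.8 CPM in the old AL mice and 24.3, 29.5, 24.2 and 27.9 CPM in the old EOD mice. The young AL mice were within 22.1 to 24 CPM, and of the young EOD mice the first lay among them and the others lay above. Its average diet difference was 0.13 (SE 0.0712, 95% interval -0.02 to 0.28, unadjusted p = 0.0795, edgeR FDR 0.983). Pik3r4, the regulatory kinase subunit, was measured at 40.7, 46.6, 57.5 and 45.3 CPM in the young AL mice and 41.8, 46.1 and 40.6 CPM in the young EOD mice. Pik3r4 was at 43.6, 46.6, 40.3 and 41.4 CPM in the old AL mice and 47.4, 45.7, 44.2 and 44.7 CPM in the old EOD mice. The third young AL mouse was the highest and stood apart from the rest, and the Pik3r4 interaction was 0.24 (95% interval -0.06 to 0.54, edgeR FDR 1.0). Leaving that mouse out gave a Pik3r4 interaction of 0.13 (95% interval -0.12 to 0.38, edgeR FDR 1.0). Uvrag and Ambra1, which bind Beclin 1, had average age differences of 0.11 and 0.06 on the log2 scale and did not pass.

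The ATG2, ATG9 and WIPI group moves lipid into the growing membrane and reads its lipid signal, and 0 of its 6 members passed with age or diet (2 of 6 above 0 with age, median log2 difference -0.0451). Wipi2, which recruits the conjugation machinery, was measured at 123, 137, 139 and 127 CPM in the young AL mice and 136, 152 and 140.0 CPM in the young EOD mice. Wipi2 was at 134, 130.2, 121 and 126 CPM in the old AL mice and 132, 137, 119.5 and 147 CPM in the old EOD mice. The second young EOD mouse was highest, the third old EOD mouse was lowest, and old and young mice overlapped within each diet. Its log2 difference was -0.06 (95% interval -0.18 to 0.05, edgeR FDR 0.704) with age and 0.09 (95% interval -0.02 to 0.20, edgeR FDR 0.983) with diet. Atg2b, a lipid transfer protein, was measured at 72.2, 59.6, 66.6 and 69.4 CPM in the young AL mice and 75.5, 80.1 and 56.6 CPM in the young EOD mice. Atg2b was at 73, 70.6, 62.8 and 61.4 CPM in the old AL mice and 71.9, 74.1, 76.2 and 78.4 CPM in the old EOD mice. The young EOD mice held both the highest and the lowest value, and the old EOD mice overlapped the old AL mice. The average diet difference of Atg2b was 0.12 (95% interval -0.03 to 0.27, edgeR FDR 0.983). The remaining genes were Atg2a, the paralog of Atg2b, Atg9a, the transmembrane lipid scramblase, and Wipi1 and Wdr45, which bind the lipid signal, and their age differences lay between -0.08 and 0.05.

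The conjugation enzymes, which attach ATG12 to ATG5 and ATG8 proteins to lipid, had 0 of 9 members past FDR 0.1 in each comparison. In the average age comparison 8 of the 9 lay above 0 (median 0.0455), against 48.5% of all genes tested. In AL mice alone 4 of the 9 lay above 0 (median -0.0052), and in EOD mice 7 did (median 0.091). Atg12, the ubiquitin-like protein of the first reaction, had the highest level per length of the group and was measured at 84.8, 87.6, 69.3 and 86.2 CPM in the young AL mice and 82.5, 81.3 and 79 CPM in the young EOD mice. Atg12 was at 96.2, 77.2, 89.1 and 75.8 CPM in the old AL mice and 81.6, 80.2, 69.7 and 87.2 CPM in the old EOD mice. Atg12 was lowest in the third young AL mouse and highest in the first old AL mouse, and the average age difference was 0.01 (95% interval -0.13 to 0.15, edgeR FDR 0.975). Atg4c, a protease that trims and releases ATG8 proteins, was measured at 52.5, 62.4, 63.8 and 48.3 CPM in the young AL mice and 49.3, 46.8 and 52.2 CPM in the young EOD mice. Atg4c was at 56.5, 48.7, 46.3 and 56 CPM in the old AL mice and 59.4, 56.2, 60.1 and 60.9 CPM in the old EOD mice. The 4 old EOD mice lay above the 3 young EOD mice, whereas the old AL and young AL mice overlapped and the third young AL mouse was the highest of all. Atg4c had a log2 age difference of 0.26 (95% interval 0.04 to 0.48, edgeR FDR 0.782) in EOD mice and -0.13 (95% interval -0.32 to 0.07, edgeR FDR 0.721) in AL mice, and the latter was -0.06 without the third young AL mouse. Its interaction was 0.38 (SE 0.142, 95% interval 0.09 to 0.68, unadjusted p = 0.0131, edgeR FDR 1.0), which did not pass the threshold.

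The other conjugation genes did not pass either. They were Atg7, the activating enzyme, Atg3 and Atg10, the conjugating enzymes, Atg5 and Atg16l1, the partners of Atg12, and Atg4b and Atg4d, proteases related to Atg4c. Their average age differences ran from -0.09 for Atg10 to 0.09 for Atg4d. Atg4d had the widest spread of these, from 13.4 CPM in the third young AL mouse to 30.1 CPM in the fourth young AL mouse, a 2.25-fold range within 1 group. Atg4b, at 68.3 to 82 CPM, had a 1.2-fold range over all 15 mice.

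The ATG8 family are the ubiquitin-like proteins that coat the autophagosome, and Gabarapl1 made up most of its transcripts. As a share of the summed CPM per kilobase of the 5 genes, Gabarapl1 held 67.6% ± 2.2 (SD, n = 4) in young AL, 68% ± 1.23 (SD, n = 3) in young EOD, 67.7% ± 0.662 (SD, n = 4) in old AL mice. The share was 68.5% ± 0.904 (SD, n = 4) in old EOD mice. Over single mice its share ran from 64.9% to 70.3%. Map1lc3a, one of the LC3 genes, held 11.7% to 16.9%, Gabarap 10.5% to 13.4%, Map1lc3b, the other LC3 gene, 2.9% to 3.95% and Gabarapl2 2.63% to 3.73%. By group means the order was Gabarapl1, Map1lc3a, Gabarap, Map1lc3b and Gabarapl2 in each group. Single mice of Map1lc3a and Gabarap overlapped in share, as did Map1lc3b and Gabarapl2. Such shares do not depend on how libraries were scaled, but they depend on the exon length used. Map1lc3b has 7517 exon bases, against 1844 for Gabarap and 1181 for Map1lc3a. In CPM not divided by length, group means were 148 to 160 for Map1lc3b, 115 to 131 for Gabarap and 91.3 to 102 for Map1lc3a. Windows shared with other genes also touch the shares of Gabarapl2 and Map1lc3b.

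**Figure D4:**
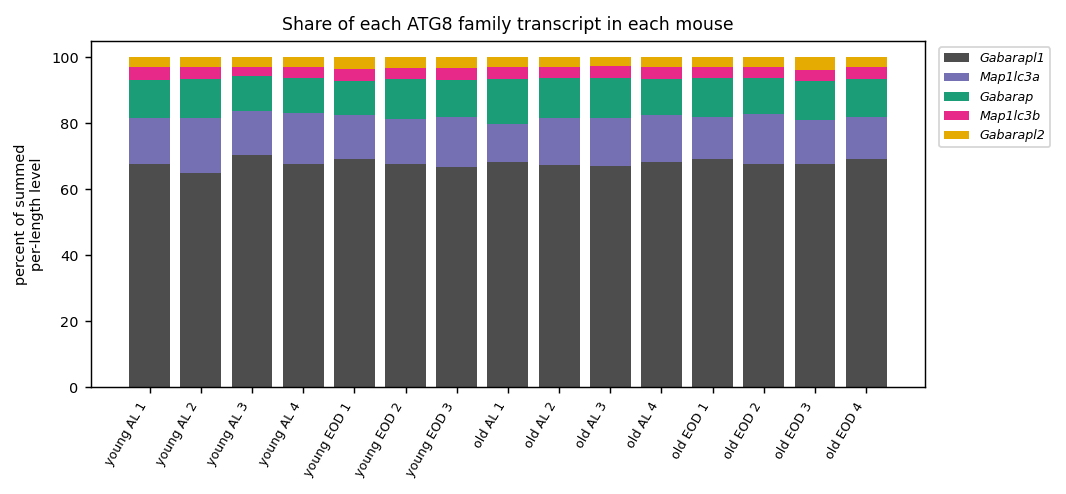
Share of each ATG8 family gene in the family's summed CPM per kilobase, as a stacked bar of percent for each of the 15 mice. Gabarapl1 holds 64.9% to 70.3% in every mouse, and the smallest bands are Map1lc3b and Gabarapl2.

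Gabarapl1 was measured at 632, 677, 788 and 659.7 CPM in the young AL mice and 644, 665 and 685 CPM in the young EOD mice. Gabarapl1 was at 665, 684, 718 and 747 CPM in the old AL mice and 751, 695, 676 and 758 CPM in the old EOD mice. Values were highest in young AL mouse number 3 and lowest in young AL mouse number 1, and the average age difference was 0.07 (95% interval -0.03 to 0.18, edgeR FDR 0.622). With young AL mouse number 3 left out, the Gabarapl1 difference was 0.11 (95% interval 0.02 to 0.21, edgeR FDR 0.3). Gabarap was measured at 112, 128, 124 and 109 CPM in the young AL mice and 102, 121 and 121 CPM in the young EOD mice. Gabarap was at 136, 127, 137 and 125 CPM in the old AL mice and 134, 116, 124 and 132 CPM in the old EOD mice. The first young EOD mouse was lowest and the third old AL mouse highest, and several young mice lay within the range of the old mice. Gabarap had an average age difference of 0.15 (SE 0.0574, 95% interval 0.03 to 0.27, unadjusted p = 0.0182, edgeR FDR 0.284), which did not pass the threshold. Map1lc3b, whose protein is the common marker of autophagosomes, was measured at 157, 162, 138 and 141 CPM in the young AL mice and 144, 148 and 152 CPM in the young EOD mice. Map1lc3b was at 159, 156, 167 and 158 CPM in the old AL mice and 151, 149, 147 and 164 CPM in the old EOD mice. Its lowest value was in the third young AL mouse and its highest in the third old AL mouse, and old and young mice overlapped within each diet. The Map1lc3b average age difference was 0.07 (95% interval -0.03 to 0.17, edgeR FDR 0.61).

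Gabarapl2, with the lowest mean share of the family in each group, was measured at 37, 39.7, 41.8 and 36.9 CPM in the young AL mice and 42, 41.3 and 45.2 CPM in the young EOD mice. Gabarapl2 was at 37.2, 37.9, 37.1 and 43.9 CPM in the old AL mice and 43, 39.3, 49.1 and 43.1 CPM in the old EOD mice. The third old EOD mouse was the highest, and the fourth old AL mouse lay above the other old AL mice and among the EOD mice. Its average diet difference was 0.15 (SE 0.0669, 95% interval 0.01 to 0.29, unadjusted p = 0.0376, edgeR FDR 0.983), the smallest p of the members in that comparison. Map1lc3a had an average age difference of -0.02 (95% interval -0.18 to 0.14, edgeR FDR 0.952).

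Cargo receptors link ubiquitinated proteins or organelles to ATG8 proteins, and all 8 genes of this group, Pink1 included, lay above 0 in the average age comparison (median log2 difference 0.0762), against 48.5% of all genes tested. Pink1 was the 1 of 8 past the threshold, which 2.3% of all genes passed, and 1.62% as higher. Sqstm1, which gathers ubiquitinated protein and is itself degraded by autophagy, was measured at 327, 426, 414 and 402 CPM in the young AL mice and 407, 388 and 433 CPM in the young EOD mice. Sqstm1 was at 404, 417, 441 and 441 CPM in the old AL mice and 441, 448, 415 and 435 CPM in the old EOD mice. The first young AL mouse was lowest and the second old EOD mouse highest, and the old and young groups overlapped. Its average age difference was 0.10 (SE 0.054, 95% interval -0.01 to 0.21, unadjusted p = 0.0726, edgeR FDR 0.475). Optn, the receptor optineurin of mitophagy and of aggregates, was measured at 21.5, 21.6, 28.2 and 23.8 CPM in the young AL mice and 20.6, 24.4 and 24.3 CPM in the young EOD mice. Optn was at 24.7, 22.7, 24 and 21.3 CPM in the old AL mice and 28.6, 26.6, 29.5 and 23 CPM in the old EOD mice. The third old EOD mouse was highest and the first young EOD mouse lowest, and the fourth old EOD mouse lay among the old AL mice. Optn had a log2 difference of 0.22 (95% interval -0.02 to 0.46, edgeR FDR 1.0) between old EOD and old AL mice and of 0.23 (95% interval -0.03 to 0.48, edgeR FDR 0.931) with age in EOD mice.

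Nbr1 and Tax1bp1, receptors of ubiquitinated cargo, Calcoco1, a receptor for the endoplasmic reticulum, and Bnip3 and Bnip3l, mitochondrial receptors induced by low oxygen, had average age differences between 0.01 for Nbr1 and 0.08 for Bnip3l. Nbr1 varied least of these, by 1.18-fold over the 15 mice. In the Bnip3 gene, 46.3% of the windows are shared with other genes. Its 46.3 to 49.5 CPM in young EOD mice lay below its 50.3 to 58.2 CPM in old EOD mice. Of all genes, 9.04% did not overlap between these groups. The Bnip3 log2 age difference in EOD mice was 0.17 (interval -0.05 to 0.38, edgeR FDR 0.97) and did not pass. In AL mice the Bnip3 difference was -0.03 (edgeR FDR 0.946), and young (46.4 to 55.0 CPM) and old (41.9 to 54.8 CPM) mice overlapped.

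Mtor, the kinase that links nutrients to growth and holds back autophagy, was measured at 114, 99.9, 133 and 126 CPM in the young AL mice and 133, 123 and 109 CPM in the young EOD mice. Mtor was at 118, 136, 108 and 115 CPM in the old AL mice and 122, 111, 109 and 118 CPM in the old EOD mice. The second young AL mouse was lowest and the second old AL mouse highest, and all 4 groups overlapped. Group means were 118 ± 14.6 CPM (SD, n = 4) in young AL, 122 ± 11.8 CPM (SD, n = 3) in young EOD, and, in the old mice, 119 ± 11.7 CPM (SD, n = 4) under AL and 115 ± 6.11 CPM (SD, n = 4) under EOD. The log2 difference of Mtor was -0.03 (95% interval -0.17 to 0.11, edgeR FDR 0.901) with age and -0.01 (95% interval -0.15 to 0.13, edgeR FDR 0.998) with diet. Rptor, the raptor subunit of the mTOR complex that controls autophagy, had 0.01 with age and 0.03 with diet.

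Tfeb, a transcription factor that mTOR keeps out of the nucleus and that drives lysosomal and autophagy genes, was measured at 4.7, 3.66, 5.82 and 5.27 CPM in the young AL mice and 4.0, 3.61 and 3.68 CPM in the young EOD mice. Tfeb was at 4.85, 4.2, 3.22 and 5.97 CPM in the old AL mice and 4.02, 5.58, 5.06 and 4.62 CPM in the old EOD mice. The fourth old AL mouse was highest and the third old AL mouse lowest, so that 1 group spanned the whole range. Its intervals were the widest of the members. The Tfeb log2 difference was 0.14 (95% interval -0.20 to 0.48, edgeR FDR 0.8) with age, 0.34 (95% interval -0.16 to 0.85, edgeR FDR 0.977) with age in EOD mice and -0.37 (95% interval -0.87 to 0.13, edgeR FDR 0.996) with diet in young mice, and in the last 2 comparisons it was the 1 member whose interval reached beyond 1.5-fold.

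Diet called 0 of the 42 members in young mice, in old mice and as an average over ages, and the interaction called 0, with edgeR's quasi-likelihood test and with DESeq2. Among all genes edgeR called 0.0% in each of these comparisons. At an unadjusted p under 0.05, edgeR gave 0 members in young mice (4.14% of all genes), 0 in old mice (2.58%), 1 as an average, Gabarapl2 (4.51%), and 1 for the interaction, Atg4c (2.28%). DESeq2 gave the same numbers, 0, 0, 1 and 1. The members' log2 diet differences averaged over ages ran from -0.18 for Atg10 to 0.15 for Gabarapl2, with a median of -0.00858, and the all-gene median was 0.000373. In young mice the median was -0.0206 and in old mice 0.0333. The intervals of the average diet difference lay within 1.5-fold for all 42 members and within 25% for 39. The separate diet differences were less precise. In young mice 41 intervals lay within 1.5-fold and 28 within 25%, and in old mice 42 and 31 did.

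The interaction was measured with less precision, and 38 of 42 intervals lay within 1.5-fold and 13 within 25%. Without the third young AL mouse 0 members were called in the diet comparisons by edgeR. At an unadjusted p under 0.05, edgeR then gave 0 members in young mice (4.01% of all genes) and 1 in old mice (Optn; 4.02%). The average over ages gave 2 (Gabarapl2 and Atg2a; 6.04%). The members' median diet difference was then 0.0215 over both ages, with 25 of 42 above 0 in place of 18, against 51.5% of all genes. The sign of that median thus turned with 1 mouse.

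Groups of mice were also compared by whether their values overlapped. Between old and young EOD mice, 5 of 42 members did not overlap, all higher in old mice, namely Atg4c, Pink1, Bnip3, Tfeb and Pik3c3, and 9.04% of all genes did not overlap between these 4 and 3 mice. For Tfeb the gap was between 4 CPM in the highest young EOD mouse and 4.02 CPM in the lowest old EOD mouse. There were 0 such members between old and young AL mice (4.56% of all genes), between young EOD and young AL mice (4.45%), between old EOD and old AL mice (2.59%), between all old and all young mice (0.901%) and between all EOD and all AL mice (0.0567%).

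Single mice moved the members in different ways. The SD over the 42 members of the log2 deviation from each gene's mean over the other mice was 0.235 in the third young AL mouse. It was 0.109 to 0.166 in the others. The largest deviation of a member was 0.728 in size, for Atg4d, in the third young AL mouse. The summed CPM of the 42 members ran from 4228 in the first young AL mouse to 4722 in the fourth old EOD mouse.

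**Figure D5:**
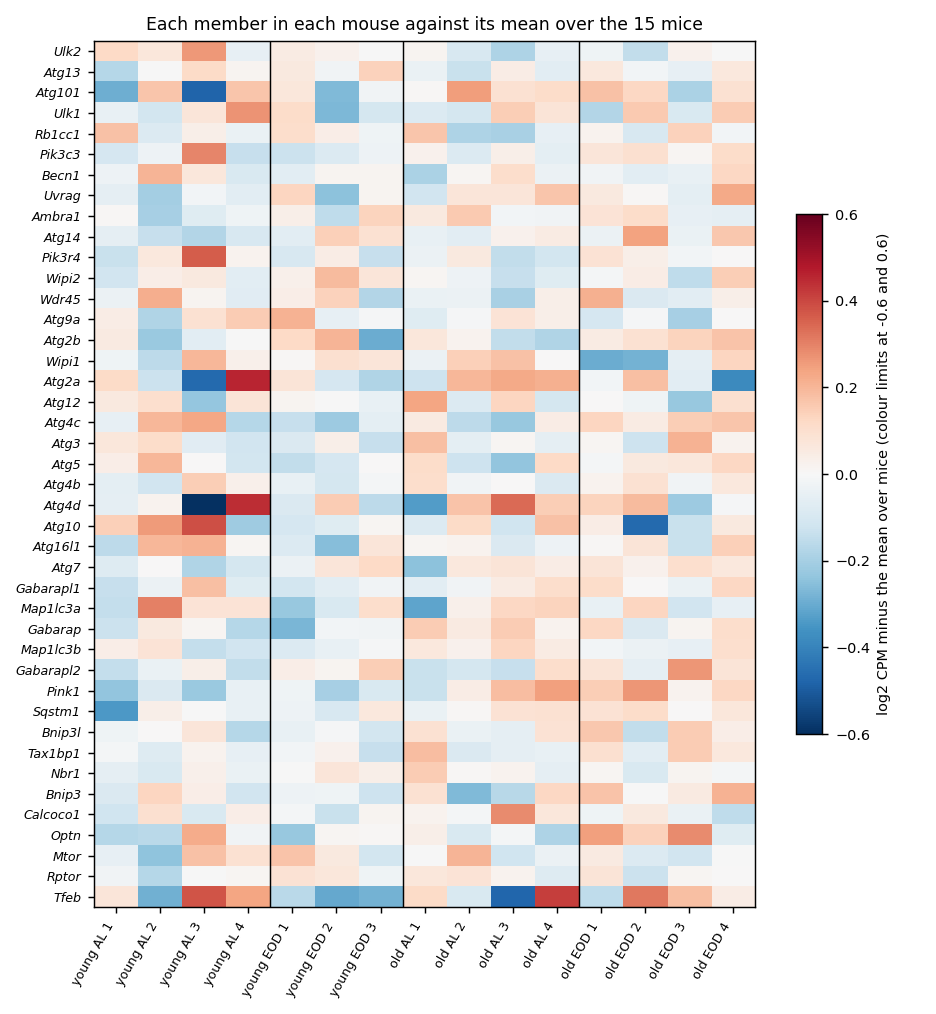
Each member in each mouse plotted as its log2 CPM less that gene's mean across mice, red above and blue below, with colour limits at -0.6 and 0.6 and mice ordered by group. The strongest single deviation is Atg4d, at 0.728 below its mean in the third young AL mouse.

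The wider pathway was described with 88 other genes, of which 87 were tested and Rps6 was not. They comprised other mTOR complex subunits (8), mTOR outputs (4 tested), lysosomal nutrient sensors (22), AMPK and other brakes on mTOR (12), other genes of autophagosome formation (11), fusion genes (14), other receptors and mitophagy genes (11) and transcription factors (5). In the average age comparison 1 of the 87 passed FDR 0.1 in edgeR, against 2.3% of all genes, and 0 passed in the other 6 comparisons. That gene was Trp53inp2, a nuclear protein that moves to autophagosomes and binds ATG8 proteins, which was measured at 205, 195, 196 and 179 CPM in the young AL mice and 187, 184 and 180.1 CPM in the young EOD mice. Trp53inp2 was at 185, 157, 182 and 160.1 CPM in the old AL mice and 155, 153, 150.4 and 180.1 CPM in the old EOD mice. Old mice were mostly lower, and the groups overlapped through 2 old AL mice and the fourth old EOD mouse. Trp53inp2 fell with age by a log2 fold change of -0.19 (SE 0.0549, 95% interval -0.31 to -0.08, unadjusted p = 0.00219, edgeR FDR 0.0963). Its FDR was 0.137 without the third young AL mouse, it was called in 7 of 22 alternatives, and over these the FDR ran from 0.0443 to 0.253.

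Wdr45b, a relative of the member Wdr45 that binds the same membrane lipid, had a log2 age difference averaged over diets of 0.19 (95% interval 0.07 to 0.31, edgeR FDR 0.145), and DESeq2 called it at FDR 0.0793. Its group means were 57.3 ± 3.82 CPM (SD, n = 4) in young AL and 63.4 ± 2.85 CPM (SD, n = 4) in old AL mice. Under EOD they were 58.2 ± 0.844 CPM (SD, n = 3) in young and 68.5 ± 5.7 CPM (SD, n = 4) in old mice. In AL mice the smallest p-values of these genes were those of Rragd, a GTPase that brings mTOR to the lysosome, with a log2 age difference of -0.21 (95% interval -0.36 to -0.06, edgeR FDR 0.311), and of Stbd1, a receptor for glycogen, with 0.81 (95% interval 0.17 to 1.44, edgeR FDR 0.362) at 1.22 CPM in young and 2.15 CPM in old AL mice. For diet the smallest were those of Fundc1, a mitophagy receptor, with 0.19 (95% interval 0.05 to 0.32, edgeR FDR 0.983), and of Prkaa2, a catalytic subunit of AMPK, with 0.13 (95% interval 0.01 to 0.26, edgeR FDR 0.983). Fundc1 was lowest in the third young AL mouse, at 58.5 CPM against 70.7 to 88.7 CPM in the other mice. The median log2 difference of the 87 genes was -0.00645 with age and 0.0153 with diet, against -0.00491 and 0.000373 over all genes.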

How the data were processed

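Whole-brain RNA of 15 mice was sequenced by the authors as single-end reads, trimmed, aligned with STAR to Ensembl GRCm38 and counted with featureCounts 1.5.0-p1 on Ensembl release 79 genes. Per the file headers, primary alignments with a mapping quality of at least 5 were counted reverse-stranded. The deposited values are raw counts per gene, with total counts of 5198748 to 13610729 setting their precision, and groups came from the sample labels. Identifiers were matched to symbols for 42462 of 43629 genes. Each library is 1 mouse.

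Genes passing filterByExpr (15864) were fitted in edgeR 4.0.16 under R 4.3.3 with TMM scaling, 4 group means and the quasi-likelihood test, with Benjamini-Hochberg adjustment and FDR under 0.1. CPM used TMM library sizes. Standard errors were derived from each log2 fold change and its F statistic, and intervals are 95%. The fits were tested on simulated data. No pair of mice in a group agreed within counting noise (chi-square per degree of freedom 3.01 to 16.6). Members and lists were chosen with earlier results of these data known.

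Values per mouse are given for 19 members: those past FDR 0.1 with all mice or without the third young AL mouse, the 3 with the smallest p in each comparison, the highest per length in each role, and Ulk1, Becn1, Sqstm1, Map1lc3b, Tfeb and Mtor. Of the other pathway genes, those past FDR 0.1 and the 2 with the smallest p for age in AL mice, average age and average diet are named. Further genes were named after their values were seen.

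Alternatives were RLE size factors, genes with 1 count or more, a minimum of 10 counts in each mouse, DESeq2 1.42.0, FDR under 0.05, replicate number as a block, lane as a covariate, 1 surrogate variable (sva 3.50.0), the groups compared alone, leaving out each mouse and, for levels, plain library totals. Promoters came from RefSeq on GRCm38.p6.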

Additional observations from a re-analysis of the deposited data

Results flagged for a closer look

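For the 19 members described by mouse, the highest and lowest mouse of each group of 4 were checked with Dixon's ratio, the gap to the nearest other mouse divided by the group's range, in 57 groups. The ratio passed the 95% critical value in 2 of them, and chance flags about 1 in 20 groups. Gabarapl2 was 43.9 CPM in the fourth old AL mouse against 37.1 to 37.9 CPM in the other old AL mice, a ratio of 0.875. This is the mouse with the pituitary hormone markers. Atg12 was 69.3 CPM in the third young AL mouse against 84.8 to 87.6 CPM in the other young AL mice, a ratio of 0.85, and this is the mouse with the fewest genes detected. Whether the pituitary markers or the low number of genes detected had a part in these values was not tested. No member had an interaction of age and diet past FDR 0.1.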

How the results depend on the processing

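In the average age comparison 0 members were called with replicate number as a block, with lane as a covariate and without the second young EOD mouse, and leaving out each mouse gave 0 to 1. In AL mice 1 member, Pink1, was called when all genes with 1 count or more were tested (0.24, edgeR FDR 0.0951) and without the first old AL mouse (0.31, edgeR FDR 0.0872), a range of 0 to 1. The replicate block gave 0.23 (edgeR FDR 0.106) for Pink1 in the average age comparison, and changed no other member's call. Replicate numbers did not pair the mice, since deviations of same-numbered mice correlated at -0.0266 on average over 21 pairs (-0.113 to 0.113) and those of other pairs at 0.00871 over 63 pairs.

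Calls over all genes moved with the low-count filter. With all genes of 1 count or more, they were 444 for age in AL mice, 100 in EOD mice and 653 on average. In that setting diet gave 26 in young and 27 in old mice and 65 on average, and the interaction gave 26. For age in AL mice they were 80 with 1 surrogate variable and 86 with the 2 groups alone, and 102 (without the third old AL mouse) to 221 leaving out each mouse. For age in EOD mice they were 72 with DESeq2 and 19 to 76 leaving out each mouse (19, 21 and 20 without the young EOD mice 1, 2 and 3, 24 without the second old EOD mouse and 76 without the third young AL mouse). For the average they were 229 at FDR 0.05, 237 with lane and 216 to 425 leaving out each mouse (222 and 216 without the young EOD mice 1 and 2). Diet gave 1 gene in young mice with DESeq2, and in old mice 2 with lane and 1 with the surrogate variable.

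Of the other pathway genes, 1 was called for age in EOD mice with all genes of 1 count or more and with the 2 groups alone, and 1 for the interaction with the former. On average with age, 2 were called with DESeq2 and 0 at FDR 0.05, with RLE factors, with the block and with lane, and 0 to 1 leaving out each mouse. Of 1312 log2 differences under alternatives, 48 changed sign and none of these was called. All 95 mean levels recomputed moved by less than 1 SD. Depth limits Tfeb most. The causes of these changes were not tested.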
